A study of Homo sapiens with 48 samples.

Results

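ASPC1 is an established human pancreatic ductal adenocarcinoma (PDAC) cell line, and the comparison described here is ASPC1 cells treated with 5 µM azacitidine (AZA) against ASPC1 cells treated with the solvent DMSO. It rests on 6 of the 48 samples of the series, 3 AZA and 3 DMSO libraries, chosen by their labels. The series addresses the zinc finger protein ZNF274 in pancreatic cancer lines and holds 30 RNA-seq libraries and 18 CUT&RUN libraries. 3 other sets of samples are used below only where they bear on this response: CFPAC1, another established PDAC line, with the same 5 µM AZA or DMSO, ASPC1 transfected with a control siRNA (siCTRL) or an siRNA against ZNF274 (siZNF274), and H3K9me3 CUT&RUN peaks of ASPC1 carrying a control shRNA, grown for 9 days with 1 µg/ml doxycycline. The AZA and DMSO groups carry no engineered allele, the length of the AZA treatment was not given in the sources used here, and DNA methylation was not measured in the files analysed.

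Azacitidine is a cytidine analog that cells take up through nucleoside transporters and phosphorylate. Part of it enters RNA, and part is reduced to the deoxy form and enters DNA, where it traps DNA methyltransferases, chiefly DNMT1, on the newly made strand, so that methylation is lost as cells divide. Methylated CpG-rich promoters are usually silent, which is how many germline genes, one copy of imprinted genes and some genes of a carcinoma's tissue of origin are kept off, and this is why genes with no RNA in the control cells matter in such a comparison.

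Gene counts of 36843 genes were read, 19955 protein-coding and 16888 lncRNA genes. The AZA libraries held 34359038, 37951952 and 38196320 counts and the DMSO libraries 38881933, 35579652 and 36919169, so the groups were sequenced to similar depth. More genes had at least 1 count with AZA (21395 to 21633) than with DMSO (20940 to 21162). The nuclear lncRNA MALAT1 took 1.33% to 1.43% of the counts with AZA and 0.744% to 0.911% with DMSO, and mRNA of the mitochondrial genome 2.21% to 2.31% and 2.35% to 3.15%. Their part in the results was not tested. Of the PDAC epithelial markers fixed for a check of the label, 11 of 12 were expressed highly enough to be tested. No library was a copy of another. The study's design text calls the replicates biological, the labels do not say that they were separate cultures, and p-values therefore measure the spread between these libraries. In such bulk RNA, fewer cells of a type and less RNA per cell cannot be told apart.

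The response to AZA was broad and mostly small. Large rises outnumbered large falls, mainly through genes with low levels. Of 16186 genes with enough counts for a test, 2792 were higher with AZA (17.2%) and 3004 lower (18.6%) at an adjusted p under 0.05 (edgeR quasi-likelihood, Benjamini-Hochberg). The median change of the genes called was 1.34-fold for those higher and 1.27-fold for those lower. At a change of at least 2-fold the order was the other way, with 559 genes higher (3.45%) and 296 lower (1.83%), and at 8-fold it was 71 against 8. The median log2 fold change over all tested genes was -0.0028. For 49.5% of tested genes the values of the AZA and DMSO libraries did not overlap, and that share is the background for each such statement below. The shares of 17.2% higher and 18.6% lower are likewise the background for each list count of this comparison.

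The size of the changes went with the level of the gene. When tested genes were split into 10 groups of equal size by their mean level over the 12 ASPC1 libraries, the group with the lowest levels had 195 genes called higher, 193 of them at least 2-fold, against 49 called lower. In the group with the highest levels 373 genes were higher and 451 lower, and 5 and 21 of them passed 2-fold. Counted from the lowest levels, groups 1 to 6 had more 2-fold rises than 2-fold falls. In groups 7, 8 and 9 the 2-fold rises and falls numbered 6 and 12, 3 and 15, and 3 and 12. A small change can be called only in a gene with many counts, so these shares also carry the depth of each group. Of protein-coding genes 20.0% were higher and 21.8% lower, and of lncRNA genes 6.55% and 5.91%.

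**Figure D1:**
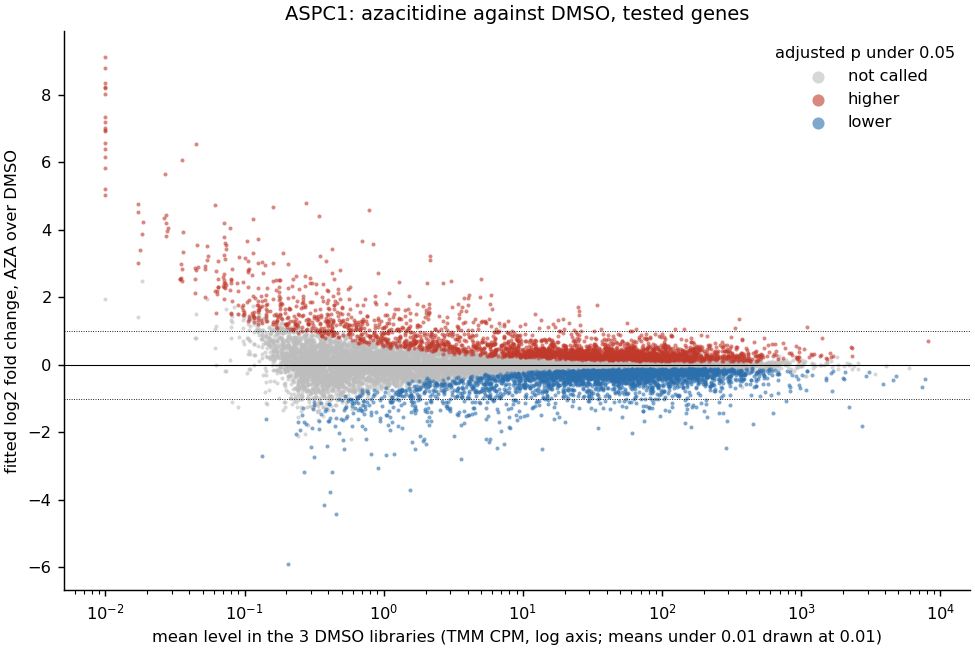
Each point is 1 of the 16186 tested genes, with the mean level in the 3 DMSO libraries on the x axis (CPM, log scale) and the log2 fold change of AZA against DMSO on the y axis; colours mark genes called higher, called lower or not called. The largest rises sit at the left, among genes with little RNA in DMSO, while most falls lie in the middle and right of the plot. The DMSO level also enters the fold change, and a gene low in DMSO could be tested through its level in another group. This pattern is therefore partly fixed in advance. Of the 1619 genes with the lowest DMSO levels, 304 were called higher and 21 lower. Of the 1619 with the lowest mean level over the 12 ASPC1 libraries, 195 were higher and 49 lower.

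Transcripts of the drug's targets were present in both groups and moved little. DNMT1, the maintenance methyltransferase that AZA traps, had 167, 175 and 174 CPM in the DMSO libraries and 194, 218 and 208 CPM in the AZA libraries. The groups did not overlap, and DNMT1 was 1.20-fold higher (adjusted p = 6.9e-04). UHRF1, which brings DNMT1 to newly replicated DNA, rose 1.63-fold (adjusted p = 4.1e-07), from 51.8 ± 2.50 to 84.3 ± 4.55 CPM (mean ± SD, n = 3). The de novo methyltransferases DNMT3A and DNMT3B had mean levels of 10.4 and 4.30 CPM with DMSO and 10.9 and 3.46 CPM with AZA and did not pass (adjusted p = 0.52 and 0.066). TET2, an enzyme that oxidises 5-methylcytosine, fell 1.20-fold (adjusted p = 0.0074). Of 22 tested genes of DNA methylation and its readers 4 were higher and 3 lower, with a median log2 fold change of 0.00. These shares of 18.2% and 13.6% stood beside 17.2% and 18.6% of all genes. Leaving out 1 library at a time gave 2 to 4 higher, the fewest without AZA replicate 1, and 1 to 3 lower, the fewest without DMSO replicate 2.

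Among 27 tested genes of nucleoside uptake and metabolism 6 were higher and 8 lower (22.2% and 29.6%, beside 17.2% and 18.6% of all genes). SLC29A2, an equilibrative nucleoside transporter, fell from 65.9, 60.9 and 69.0 CPM with DMSO to 38.6, 44.1 and 46.9 CPM with AZA, a fall of 1.51-fold (adjusted p = 5.0e-06) without overlap. SLC28A3, a concentrative transporter, fell 1.64-fold (adjusted p = 0.0017) and NT5C2, a cytosolic nucleotidase, 1.23-fold (adjusted p = 4.6e-04). Transcripts that rose included CDA, the cytidine deaminase that inactivates azacitidine, at 1.24-fold (adjusted p = 0.002), RRM2, a subunit of the ribonucleotide reductase that makes deoxynucleotides, at 1.17-fold (adjusted p = 0.0018), and DUT, which removes dUTP, at 1.23-fold (adjusted p = 0.0076). ZNF274, the gene the series is about, was 1.40-fold higher (adjusted p = 0.0032) with AZA, at 14.5, 12.3 and 14.3 CPM with DMSO and 20.1, 18.9 and 18.6 CPM with AZA.

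10 genes had no count in any DMSO library and at least 10 counts in each AZA library, which is 0.0271% of the 36843 genes in the table, and no gene did the reverse. The promoters of 4 of them are printed here because the result turns on such genes: a maternally expressed imprinted lncRNA, a metabolic enzyme, a germline antigen and a gene of the PNMA family. The sequences are from RefSeq (GRCh38.p14), run 5′ to 3′ on the gene's strand from 250 bases before to 50 bases after the start, and capitals mark CpG, the dinucleotide that DNMT1 methylates.

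MEG3 chr14:100825858-100826157 (plus strand): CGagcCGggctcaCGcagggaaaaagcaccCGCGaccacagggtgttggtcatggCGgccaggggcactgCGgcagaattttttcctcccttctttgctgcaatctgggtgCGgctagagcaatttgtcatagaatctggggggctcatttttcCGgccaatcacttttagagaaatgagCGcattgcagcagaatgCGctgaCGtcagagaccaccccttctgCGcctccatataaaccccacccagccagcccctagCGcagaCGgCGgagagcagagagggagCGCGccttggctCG
PHGDH chr1:119711684-119711983 (plus strand): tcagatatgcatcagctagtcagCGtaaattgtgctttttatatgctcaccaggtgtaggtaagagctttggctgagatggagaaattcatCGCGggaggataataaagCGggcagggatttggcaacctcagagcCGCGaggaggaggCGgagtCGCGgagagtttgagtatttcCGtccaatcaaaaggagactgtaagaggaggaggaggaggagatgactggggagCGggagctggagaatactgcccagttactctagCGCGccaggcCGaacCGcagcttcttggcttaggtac
MAGEA4 chrX:151912224-151912523 (plus strand): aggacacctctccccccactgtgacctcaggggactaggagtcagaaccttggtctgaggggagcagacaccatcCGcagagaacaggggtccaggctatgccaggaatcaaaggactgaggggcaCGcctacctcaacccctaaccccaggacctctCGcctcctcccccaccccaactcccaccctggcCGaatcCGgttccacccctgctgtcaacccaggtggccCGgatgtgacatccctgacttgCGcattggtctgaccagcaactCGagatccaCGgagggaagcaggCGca
PNMA5 chrX:152994067-152994366 (minus strand): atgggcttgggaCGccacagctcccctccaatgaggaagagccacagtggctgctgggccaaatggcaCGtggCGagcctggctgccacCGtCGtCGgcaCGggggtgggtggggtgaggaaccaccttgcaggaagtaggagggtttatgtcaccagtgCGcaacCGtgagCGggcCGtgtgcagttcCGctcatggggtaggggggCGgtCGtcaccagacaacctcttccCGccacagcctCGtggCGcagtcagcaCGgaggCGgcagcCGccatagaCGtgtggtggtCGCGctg

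These 300 bases held 19 CpG in MEG3, 15 in PHGDH, 10 in MAGEA4 and 23 in PNMA5. The other promoters found, of PNMA6E, TKTL1 and TUBA3D, held 16, 18 and 19. The 11334 promoters found for tested genes held 0 to 69 CpG, with a median of 26. Only 70.0% of tested genes had a promoter sequence here, so called shares by CpG class were void and are not given. No conclusion on CpG content is drawn from these counts.

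MEG3, an imprinted lncRNA normally made from the maternal chromosome 14, had 54, 72 and 91 counts in the AZA libraries, or 1.54, 1.87 and 2.35 CPM, and none in DMSO. Against a floor of 3 counts over the DMSO group it was at least 72.3-fold higher. PHGDH, the first enzyme of serine synthesis from glucose, had 28, 38 and 50 counts with AZA (0.801, 0.989 and 1.29 CPM) and was at least 38.7-fold higher. MAGEA4, a cancer-testis antigen of chromosome X, had 30, 45 and 39 counts with AZA and was at least 38.0-fold higher. All 3 AZA libraries carried each of the 10 genes at a low level, of the order of 1 CPM, so the RNA that appeared was a small part of each library.

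The other 7 were 2 PNMA genes, PNMA6E (31, 73 and 69 counts, at least 57.7-fold higher) and PNMA5 (36, 42 and 48 counts, at least 42.0-fold higher), both derived from retrotransposon sequence, the transcription factor SALL1 (20, 50 and 31 counts, at least 33.7-fold higher), the transketolase-like TKTL1 (23, 21 and 18 counts, at least 20.7-fold higher), the tubulin TUBA3D (13, 29 and 14 counts, at least 18.7-fold higher), the tetraspanin TSPAN18 (15, 16 and 17 counts, at least 16-fold higher) and the lncRNA RP11-402P6.15 (16, 21 and 13 counts, at least 16.7-fold higher). TUBA3D and the PNMA6 genes have near-identical copies among which the counting could split reads, and TUBA3D did not pass DESeq2 (adjusted p = 0.0826). 5 of the 10 lie on chromosome X (PNMA6E, PNMA5, MAGEA4, TKTL1 and RP11-402P6.15). Of the 16186 tested genes, most of which had RNA in DMSO, 468 lie there. The share of chromosome X among genes without a DMSO count is not given here, so no excess on X is read from these numbers. At 5 counts in each AZA library in place of 10 the set had 24 genes, and with up to 3 counts allowed over the DMSO libraries 29.

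**Figure D2:**
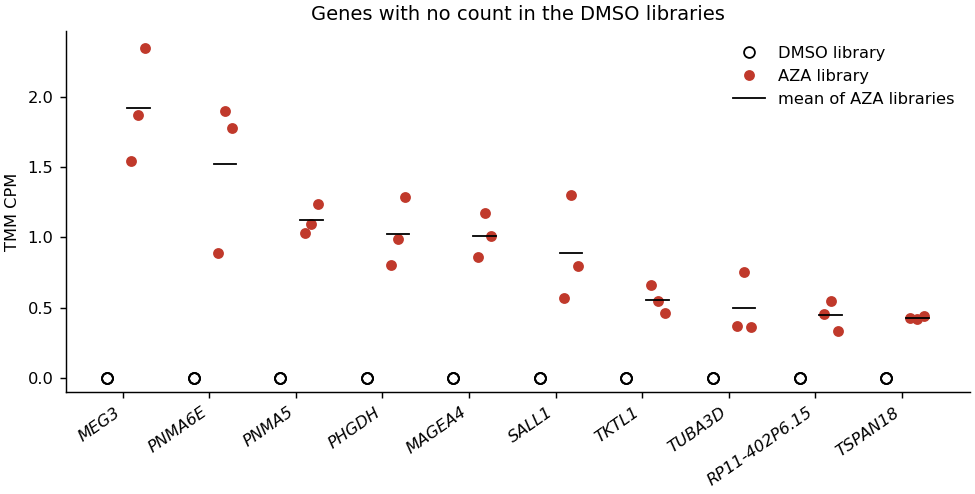
Level of the 10 genes in each of the 3 DMSO (open) and 3 AZA (filled) libraries of ASPC1, in CPM on a linear y axis, with 1 column per gene and a bar at the mean of the AZA libraries. All DMSO points are at 0, and MEG3 has the highest AZA mean, with 217 counts over the 3 libraries, and TSPAN18 the lowest, with 48.

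Few of the germline genes had enough counts for a test. Of 87 listed cancer-testis and germline genes only 15 had enough counts for a test, and 28 had no count in the 6 libraries. Of those tested 8 were higher and 1 lower, and the count of higher genes ranged from 5 to 8 when 1 library was left out, with the fewest without DMSO replicate 3. The 1 lower gene was not called in any fit that left out 1 library. A germline gene that passed through its AZA level alone had to differ, so this share is a description only. MAEL, which takes part in piRNA silencing of transposons in the germline, had 0.887, 0.703 and 0.516 CPM with AZA and 1 count in all over the DMSO libraries, a ratio of 78.0 with an exact 95% counting interval of 13.6 to 3121. SYCP2, a part of the synaptonemal complex of meiosis, was already present in DMSO and rose 1.85-fold (adjusted p = 9.3e-04), from 1.42 ± 0.127 to 2.62 ± 0.0877 CPM.

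Among 24 of 43 imprinted genes that could be tested 7 were higher and 8 lower (29.2% and 33.3%, beside 17.2% and 18.6% of all genes). Members with little or no RNA in DMSO, such as MEG3 and TFPI2, could pass through their AZA level. The share of higher genes is therefore a description only. Besides MEG3 the rises included TFPI2, a secreted protease inhibitor, which had 0, 0 and 0.0266 CPM with DMSO and 1.14, 1.95 and 1.42 CPM with AZA. The single DMSO count of TFPI2 came from replicate 3, and the ratio was 170.0 with an exact 95% counting interval of 30.1 to 6755. KLF14, a transcription factor without introns, rose 3.07-fold (adjusted p = 5.0e-04). KCNQ1, a potassium channel gene that overlaps an imprinted antisense RNA, fell 3.23-fold (adjusted p = 7.4e-08) from 6.93, 6.96 and 6.42 CPM to 2.35, 1.77 and 2.17 CPM, without overlap.

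Of 78 genes whose promoters are often methylated in carcinoma 33 were tested, 13 were higher (39.4%) and 2 lower, and the median log2 fold change was 0.19, a description only, since low members passed through their AZA level. CLDN5, a tight junction claudin typical of endothelium, had 0.0256, 0.0282 and 0.0533 CPM in the DMSO libraries and 2.55, 2.39 and 2.94 CPM in the AZA libraries. The groups were far apart (adjusted p = 1.2e-08). TIMP2, an inhibitor of matrix metalloproteinases, rose 1.49-fold (adjusted p = 6.5e-08) from a high level, from 577 ± 17.3 to 859 ± 22.2 CPM. CDKN2A, which encodes the INK4A and ARF tumour suppressors, was 1.69-fold higher (adjusted p = 4.1e-07), from 105 ± 5.82 to 177 ± 9.78 CPM, without overlap, and its neighbour CDKN2B rose 1.64-fold (adjusted p = 5.1e-07). RARRES1 and IRF8 went the other way, with falls of 2.18-fold (adjusted p = 2.0e-06) and 1.46-fold (adjusted p = 4.3e-06).

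Neuronal genes included 20 of 59 with enough counts, of which 11 were higher and 1 lower (0 lower without AZA replicate 1 or AZA replicate 2), with a median log2 fold change of 0.60. VGF, a secreted neuropeptide precursor, rose 1.81-fold (adjusted p = 5.2e-06) from 109, 111 and 128 CPM to 197, 221 and 214 CPM. CACNA1A, a neuronal calcium channel subunit, rose 2.82-fold (adjusted p = 3.6e-08) and the synaptotagmin SYT7 2.50-fold (adjusted p = 1.3e-05). Of 12 endothelial markers 6 were tested and 6 were higher, among them ESAM and TIE1 at 2.57-fold (adjusted p = 7.1e-05) and 5.48-fold (adjusted p = 6.6e-04). Members that passed through their AZA level alone had to differ here too, and the median DMSO level of the tested endothelial markers was 0.255 CPM and of the neuronal genes 0.866 CPM, so these counts are descriptions only. The summed level of the endothelial markers was 17.0 to 20.5 CPM in DMSO and 27.0 to 27.4 CPM with AZA, and the defining receptor KDR had no count in the 6 libraries. Of 12 fibroblast and 18 leukocyte markers 6 and 4 were tested, 2 and 2 higher and 0 and 1 lower, and 0 and 3 had no count in the 6 libraries. The leukocyte markers higher numbered 0 without AZA replicate 1, AZA replicate 3, DMSO replicate 1 or DMSO replicate 3 and 1 without AZA replicate 2 or DMSO replicate 2, and the fibroblast markers 1 without AZA replicate 2 or DMSO replicate 3. The part of other cell types in these values was not tested.

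Among protein-coding genes at 5 CPM or more that were called and did not overlap between groups, the 15 largest rises ran from 4.15-fold to 27.8-fold. The first 7 were NPTX1, a secreted neuronal pentraxin, MMP1, the interstitial collagenase, at 24.2-fold, TOX2, an HMG-box factor, at 21.0-fold, DUSP5, a nuclear phosphatase of ERK, at 12.8-fold, BMP6, a BMP ligand, at 11.9-fold, the sugar-phosphate exchanger SLC37A2 at 9.38-fold and kindlin-3 (FERMT3), which activates integrins on leukocytes, at 8.58-fold (largest adjusted p = 1.7e-08). ITGA5, which pairs with integrin beta 1 to form the fibronectin receptor, had 4.63, 5.01 and 5.30 CPM in the DMSO libraries and 28.5, 30.7 and 27.6 CPM in the AZA libraries. It was 5.81-fold higher (log2 fold change 2.54, SE 0.094, adjusted p = 2.9e-11), and the groups stood far apart. KRT7, a keratin of ductal epithelium, had 2.38, 2.79 and 2.85 CPM with DMSO and 13.7, 14.9 and 14.0 CPM with AZA and rose 5.31-fold (adjusted p = 6.9e-09). Others of the 15 were RFLNB, which binds filamin, at 6.58-fold (adjusted p = 1.7e-08), PPP2R2C, a regulatory subunit of protein phosphatase 2A, at 5.63-fold (adjusted p = 5.6e-10), FKBP10, a collagen chaperone of the endoplasmic reticulum, at 5.50-fold (adjusted p = 9.9e-10), the B cell lectin CD22 at 5.32-fold (adjusted p = 1.0e-08) and NES, the intermediate filament nestin, at 4.17-fold (adjusted p = 5.5e-10).

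Metallothioneins are small proteins that bind zinc and copper. Of 14 listed genes, which include their regulator MTF1 and the zinc exporter SLC30A1, 8 were tested. Of these 5 were higher (62.5% against 17.2% of all genes) and 0 lower, and the median log2 fold change was 1.06. Their median DMSO level was 2.47 CPM, and low members could pass through their AZA level, so the share is a description only. MT2A had 3.86, 3.91 and 4.48 CPM in the DMSO libraries and 14.1, 21.2 and 15.5 CPM in the AZA libraries, a rise of 4.15-fold (adjusted p = 5.3e-08). MT1M and MT1E rose 5.00-fold (adjusted p = 1.2e-04) and 1.63-fold (adjusted p = 1.3e-04). MT1G rose to 1.49, 2.24 and 1.32 CPM, and its log2 fold change of 2.63 became 3.29 without DMSO replicate 2. These genes are close in sequence, so reads could be split among them. In CFPAC1 1 of the list was higher and 2 lower.

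Among protein-coding genes at 5 CPM or more chosen in the same way, the 15 largest falls ran from 3.38-fold to 5.69-fold. The first 8 were PRR15L, COL28A1, a collagen chain, at 5.56-fold, GPA33, a surface antigen of intestinal epithelium, at 5.52-fold, the secreted lectin REG4 at 5.09-fold, the connexin GJB1 at 4.88-fold, the choline transporter-like SLC44A4 at 4.59-fold, ARHGEF38 at 4.57-fold and ANXA13 at 4.07-fold (largest adjusted p = 1.2e-06). TM4SF20 and TM4SF4, tetraspan membrane proteins of gut and liver, fell 3.89-fold (adjusted p = 8.2e-08) and 3.57-fold (adjusted p = 6.9e-12). TMIGD1, an adhesion protein of enterocytes, fell 3.63-fold (adjusted p = 1.1e-07), MGAM2, a maltase-glucoamylase gene, 3.38-fold (adjusted p = 1.5e-09), and EPHA1, a receptor tyrosine kinase of epithelia, 3.57-fold (adjusted p = 8.6e-08). MYB, a transcription factor of progenitor cells of blood and colon, had 39.0, 35.3 and 30.1 CPM with DMSO and 10.0, 8.25 and 10.1 CPM with AZA and fell 3.68-fold (adjusted p = 2.5e-08), without overlap. By difference in CPM, which is not corrected for gene length, the largest falls were KRT8, 6948, 7729.5 and 7294 CPM with DMSO and 4546, 4539 and 4721 CPM with AZA, the mitochondrial MT-CO1, SCD and CDH17. MT-CO1 fell 1.35-fold (adjusted p = 0.012) and was not called without DMSO replicate 1. By the same measure the largest rises, after MALAT1, were SERPINE2, from 1102 ± 44.5 to 2406 ± 93.7 CPM, and FTH1, from 1415 ± 96.9 to 2457 ± 75.1 CPM.

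Most of the lipid synthesis genes tested were lower. Sterol genes are switched on together by SREBF2 when membrane cholesterol is low. Of 27 tested genes of sterol synthesis and uptake 0 were higher and 24 lower (88.9% against 18.6% of all genes), 11 of them at least 2-fold, with a median log2 fold change of -0.89. DHCR7, the last enzyme of cholesterol synthesis, had 172, 169 and 185 CPM in the DMSO libraries and 66.0, 81.3 and 74.7 CPM in the AZA libraries. It fell 2.37-fold (adjusted p = 6.6e-09), and no AZA library reached a DMSO library. STARD4, a cytosolic sterol carrier, fell 2.92-fold (adjusted p = 4.7e-09), and SREBF2 itself 1.85-fold (adjusted p = 6.1e-10).

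In fatty acid synthesis 20 of 27 tested genes were lower and 2 higher, with a median log2 fold change of -0.46. SCD, the desaturase that makes monounsaturated fatty acids, had 2860.1, 2662 and 2679.6 CPM with DMSO and 725, 859 and 746 CPM with AZA, a fall of 3.52-fold (adjusted p = 7.2e-12). FADS2, a desaturase of polyunsaturated fatty acids, fell 2.68-fold (adjusted p = 1.9e-09), ACACA, the carboxylase that makes malonyl-CoA, 1.95-fold (adjusted p = 1.0e-08), and MLXIPL, the glucose-responsive factor ChREBP, 2.33-fold (adjusted p = 1.0e-08). The exceptions were SCD5, a second desaturase gene, and FADS3, at 2.03-fold (adjusted p = 0.0033) and 1.33-fold higher (adjusted p = 5.7e-04).

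Genes of sterol export and storage did not share that direction. Of 14 tested efflux and LXR target genes 7 were higher and 4 lower. ABCA1, the pump that loads cholesterol onto apolipoprotein, rose 1.95-fold (adjusted p = 2.7e-05) from 6.11, 7.10 and 5.73 CPM to 13.2, 10.2 and 13.4 CPM, and SOAT1, which esterifies cholesterol for storage, rose 1.47-fold (adjusted p = 2.2e-06). NPC1, which exports cholesterol from lysosomes, fell 1.16-fold (adjusted p = 0.001). Of 13 lipid droplet genes 5 were higher, among them the coat proteins PLIN2 and PLIN3 at 1.42-fold (adjusted p = 2.3e-04) and 1.36-fold (adjusted p = 5.1e-05), and MGLL, a monoglyceride lipase, fell 2.16-fold (adjusted p = 1.7e-08).

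Intestinal genes were mostly lower with AZA. Of 45 tested genes of intestinal and gastric epithelium 31 were lower (68.9%), 20 of them at least 2-fold, and 5 higher, with a median log2 fold change of -0.84. CDH17, the liver-intestine cadherin, had 2252, 2244 and 2107 CPM in the DMSO libraries and 938, 909 and 945 CPM in the AZA libraries, a fall of 2.37-fold (adjusted p = 6.9e-12). VIL1, which bundles actin in microvilli, had 288, 298 and 289 CPM with DMSO and 96.0, 84.9 and 95.3 CPM with AZA and fell 3.17-fold (adjusted p = 6.9e-12). ANXA13, an annexin of enterocytes, fell 4.07-fold (adjusted p = 7.2e-12). The groups of these genes did not overlap. The exceptions that rose were TFF2, a gastric trefoil peptide, at 4.91-fold (adjusted p = 9.4e-07), KRT20, a keratin of differentiated enterocytes, at 3.85-fold (adjusted p = 2.9e-05), the nuclear receptor NR5A2 at 1.28-fold (adjusted p = 1.0e-04), and ASCL2 and CEACAM5, the last named after its values were seen, at 1.28-fold (adjusted p = 0.0041). ASCL2 had 2 counts over the DMSO libraries, all in replicate 2, and 0.394 CPM with AZA, a ratio of 22.0 with an exact 95% counting interval of 5.74 to 187, and its fitted log2 fold change of 4.22 became 6.84 without DMSO replicate 2.

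Transcription factors of foregut and duct split, with 11 of 24 lower and 5 higher. HNF4G, which drives enterocyte genes, had 99.5, 96.3 and 95.1 CPM with DMSO and 37.0, 33.1 and 32.5 CPM with AZA and fell 2.84-fold (adjusted p = 5.4e-11). Its relative HNF4A fell 1.59-fold (adjusted p = 6.5e-08), PDX1, the factor of pancreas and duodenum, 1.74-fold (adjusted p = 2.6e-06), and CREB3L1, a membrane-bound factor of secretory cells, 2.83-fold (adjusted p = 5.0e-06). GRHL3 and PROX1, factors of epithelial barrier and of lymphatic and hepatic fate, rose 2.21-fold (adjusted p = 2.5e-07) and 2.17-fold (adjusted p = 2.4e-07).

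Most of the epithelial junction genes tested were lower as well. Of 38 tested 0 were higher and 29 lower (76.3%), with a median log2 fold change of -0.38; upper quartile scaling gave 1 higher. CDH1, the E-cadherin of adherens junctions, had 123, 119.9 and 109 CPM in the DMSO libraries and 53.2, 47.5 and 48.2 CPM in the AZA libraries, a fall of 2.37-fold (adjusted p = 1.7e-09). CLDN1, a claudin of tight junctions, fell 2.40-fold (adjusted p = 7.7e-09), PKP2, a plakophilin of desmosomes, 1.88-fold (adjusted p = 6.4e-09), and EPCAM, an adhesion protein of simple epithelia, 1.72-fold (adjusted p = 9.1e-10). The simple keratins KRT8, KRT18 and KRT19 fell 1.59-fold, 1.49-fold and 1.35-fold (adjusted p = 4.7e-07, 4.2e-06 and 1.2e-05), whereas KRT80 and KRT13 rose 1.48-fold and 16.7-fold (adjusted p = 2.1e-05 and 1.8e-06), so keratins counted 4 higher and 4 lower of 12. Of 9 mucins 5 were lower, led by MUC13 and MUC1 at 2.56-fold (adjusted p = 6.6e-09) and 1.89-fold (adjusted p = 1.9e-06), and MUC4 and MUC12 rose 2.85-fold (adjusted p = 1.6e-04) and 1.95-fold (adjusted p = 1.4e-04).

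More mesenchymal genes were higher than lower. Of 35 tested mesenchymal genes 15 were higher (42.9% against 17.2% of all genes) and 4 lower, with a median log2 fold change of 0.23, while 18 of 53 had too few counts to test. VIM, the filament vimentin, rose 1.21-fold (adjusted p = 4.4e-04), from 2298 ± 91.6 to 2769.8 ± 31.9 CPM. LGALS1, a secreted lectin, had 33.2, 33.3 and 43.2 CPM in the DMSO libraries and 72.1, 78.7 and 77.3 CPM in the AZA libraries, a rise of 2.08-fold (adjusted p = 2.3e-06) without overlap. The matrix protein TGFBI rose 1.27-fold (adjusted p = 6.0e-06). CCN2 and THBS2, matricellular proteins, fell 1.82-fold (adjusted p = 3.2e-05) and 1.38-fold (adjusted p = 1.8e-06).

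Of 21 tested proteases and inhibitors of the matrix 11 were higher and 2 lower. SERPINE2, a thrombin and plasminogen activator inhibitor, had 1149.5, 1094 and 1062 CPM with DMSO and 2504, 2317 and 2397 CPM with AZA, and TIMP1, an inhibitor of matrix metalloproteinases, had 58.1, 59.7 and 57.4 CPM with DMSO and 116, 119 and 115 CPM with AZA. They rose 2.18-fold (adjusted p = 6.9e-11) and 2.00-fold (adjusted p = 6.6e-10), without overlap. MMP7, the epithelial matrilysin, fell 2.91-fold (adjusted p = 6.9e-12), from 211 ± 6.47 to 72.5 ± 1.86 CPM. Among 25 integrins and adaptors 12 were higher and 5 lower: ITGA6, a laminin receptor subunit, and FERMT1, an integrin activator of epithelia, rose 1.28-fold (adjusted p = 1.1e-05) and 1.58-fold (adjusted p = 4.7e-08), and ITGB6 and the talin TLN2 fell 1.77-fold (adjusted p = 4.6e-08) and 2.16-fold (adjusted p = 5.8e-10). FLNA, the filamin that links integrins to actin, rose 2.55-fold (adjusted p = 1.8e-08), and VCAN, a matrix proteoglycan, 1.42-fold (adjusted p = 3.8e-07).

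**Figure D3:**
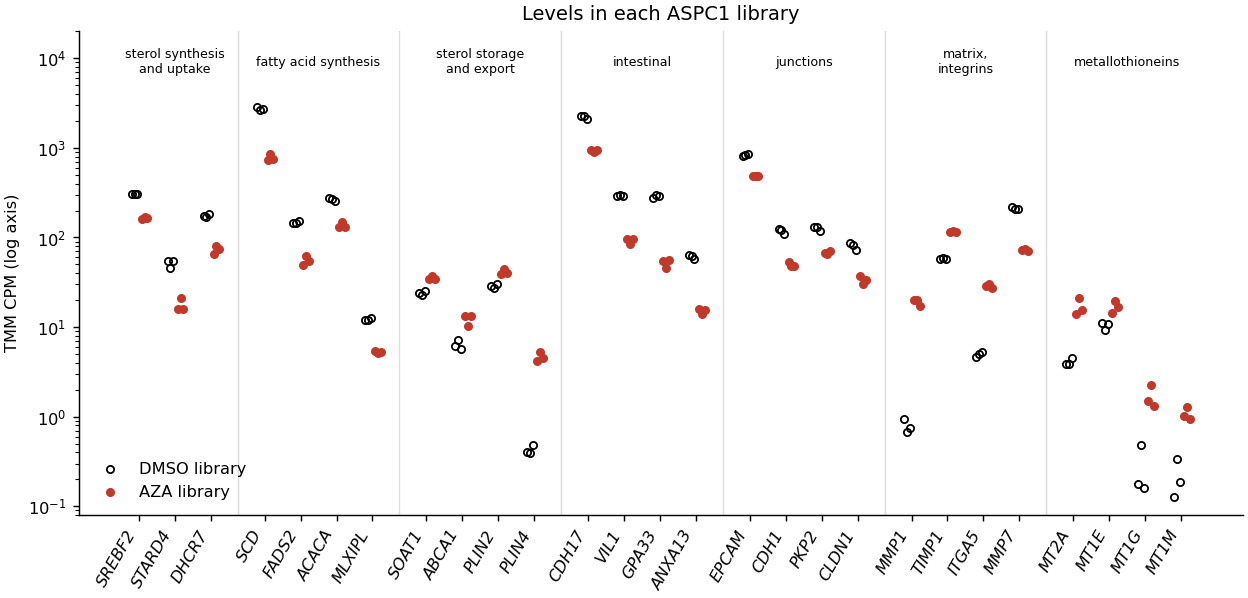
Levels of named genes in each DMSO and AZA library of ASPC1, with CPM on a log axis and 1 point per library, open for DMSO and filled for AZA. Genes stand by group, and those that fell (such as SCD, STARD4, CDH17 and VIL1) stand beside genes that rose (such as ITGA5 and TIMP1), and for these genes the points of the groups do not overlap.

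Signalling genes changed in both directions. Of 32 ERK feedback and target genes 12 were higher and 3 lower. SPRY4, a feedback inhibitor of receptor signalling, had 227, 222 and 213 CPM with DMSO and 340.4, 331 and 331 CPM with AZA and rose 1.52-fold (adjusted p = 1.9e-05), and the chromatin protein HMGA2 rose 1.39-fold (adjusted p = 3.4e-06). SPRY1 and SPRY2, of the same inhibitor family, fell 1.31-fold (adjusted p = 3.5e-04) and 1.25-fold (adjusted p = 0.0033). TGFA, a ligand of EGFR, and EGFR itself rose 1.56-fold (adjusted p = 7.3e-08) and 1.26-fold (adjusted p = 2.0e-05), while ERBB3, the kinase-impaired partner receptor, fell 1.76-fold (adjusted p = 1.5e-08), from 548 ± 24.3 to 311 ± 25.6 CPM.

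In the TGF-beta and BMP pathway 13 of 42 tested genes were higher and 16 lower. Among ligands BMP6 had 0.690, 0.957 and 0.853 CPM with DMSO and 9.70, 11.1 and 8.90 CPM with AZA and rose 11.9-fold (adjusted p = 1.2e-10), without overlap, and BMP4 fell 1.48-fold (adjusted p = 1.6e-06) from a mean of 180.4 CPM. Among latent TGF-beta binding proteins LTBP2 and LTBP4 rose 2.29-fold (adjusted p = 1.5e-08) and 1.72-fold (adjusted p = 7.4e-07) and LTBP1 fell 1.58-fold (adjusted p = 8.8e-08). Among receptors and transducers the coreceptor TGFBR3 and the pseudoreceptor BAMBI fell 1.46-fold (adjusted p = 8.3e-06) and 1.60-fold (adjusted p = 2.4e-07), and SMAD3, a transducer of TGF-beta, rose 1.44-fold (adjusted p = 1.8e-07) from 280.1, 273 and 274 CPM to 398, 387 and 404 CPM.

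Interferon response genes, which DNA demethylation is known to raise in other tumour cells, were lower more often than higher here. Of 45 tested of 59 listed 6 were higher and 17 lower (13.3% and 37.8%), with a median log2 fold change of -0.16. GBP3, a guanylate-binding protein, had 37.2, 36.7 and 38.7 CPM with DMSO and 15.3, 14.8 and 16.6 CPM with AZA and fell 2.40-fold (adjusted p = 4.8e-10). ISG20, an exonuclease, and DTX3L, a ubiquitin ligase, fell 1.40-fold (adjusted p = 3.6e-05) and 1.31-fold (adjusted p = 4.8e-05). IRF7, the factor that amplifies interferon transcription, and BST2, which tethers virions, rose 1.65-fold (adjusted p = 1.4e-05) and 1.60-fold (adjusted p = 4.8e-04). Without AZA replicate 3 the count of higher genes was 3, and 12 to 18 genes were lower over the fits that left out 1 library.

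The sensors of foreign nucleic acid counted 5 higher and 2 lower of 18, with 4 without DMSO replicate 3 on the lower side. IRF3 and TBK1, which relay the signal, rose 1.24-fold (adjusted p = 0.0029) and 1.23-fold (adjusted p = 0.0015), and TLR3, a receptor of double-stranded RNA, and DHX58, a helicase, fell 1.88-fold (adjusted p = 0.0018) and 1.64-fold (adjusted p = 0.001). Antigen presentation had 9 of 28 genes lower and 1 higher, the latter 2 without AZA replicate 1 or DMSO replicate 2 and 2 with upper quartile scaling. TAPBP, which loads peptides on class I molecules, fell 1.40-fold (adjusted p = 8.4e-06), and NLRC5, the transactivator of class I genes, rose 1.36-fold (adjusted p = 8.1e-04). Of 17 genes derived from retroviral elements 2 were higher and 6 lower. Repeat elements were not analysed here.

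Inflammatory genes of the NF-kB group counted 9 higher and 15 lower of 40, and 5 higher without AZA replicate 3. The chemokines CXCL1 and CXCL3 fell 2.13-fold (adjusted p = 9.9e-05) and 2.41-fold (adjusted p = 4.7e-05), CXCL16 1.62-fold (adjusted p = 5.9e-07), and BIRC3, an inhibitor of apoptosis, 1.49-fold (adjusted p = 3.7e-05). CSF1, the growth factor of macrophages, rose 2.04-fold (adjusted p = 1.1e-06), and IL1A and IL1B 2.69-fold (adjusted p = 9.9e-04) and 2.43-fold (adjusted p = 9.8e-04), from levels under 1 CPM.

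Many genes of the unfolded protein response were lower and many ribosomal protein genes higher, by small steps. Of 24 tested genes of the unfolded protein response 16 were lower (66.7%) and 1 higher, with a median log2 fold change of -0.29. HSP90B1, the endoplasmic HSP90, had 539.6, 529 and 523 CPM with DMSO and 353, 365 and 361 CPM with AZA and fell 1.48-fold (adjusted p = 2.9e-08). PDIA4 and PDIA3, disulfide isomerases, and the lectin chaperone CALR fell 1.40-fold (adjusted p = 2.6e-06), 1.39-fold (adjusted p = 6.3e-07) and 1.38-fold (adjusted p = 2.5e-05). SYVN1, a ubiquitin ligase of the same compartment, rose 1.20-fold (adjusted p = 5.0e-04). ATF4, the factor of the integrated stress response, fell 1.35-fold (adjusted p = 8.8e-05), and of 36 genes of its list 5 were higher and 5 lower, with 3 without AZA replicate 3 or DMSO replicate 2 on the lower side, and 10 higher with the 6 AZA and DMSO libraries alone.

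Of 81 cytosolic ribosomal protein genes 44 were higher (54.3%) and 1 lower, with a median log2 fold change of 0.19. RPL23A had 131, 139 and 146 CPM with DMSO and 181, 189 and 189 CPM with AZA and rose 1.34-fold (adjusted p = 1.1e-04). RPL22 was the member that fell, by 1.25-fold (adjusted p = 4.9e-04), and the count of lower genes was 4 without DMSO replicate 3. Among 25 snoRNA host genes 8 were higher and 0 lower, with SNHG6 and SNHG29 at 1.64-fold (adjusted p = 1.2e-06) and 1.29-fold (adjusted p = 1.4e-04). Ribosomal proteins have many pseudogenes, among which reads could be split. Ribosome biogenesis factors had 14 of 46 higher (6 without AZA replicate 2 or DMSO replicate 1 and 8 without AZA replicate 3) and 3 lower (1 without AZA replicate 1).

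Proliferation genes did not move as a block. Of 48 DNA replication genes 18 were higher and 2 lower, with a median log2 fold change of 0.10. MCM10 and CDC45, factors of replication initiation, and POLD1, the catalytic subunit of polymerase delta, rose 1.40-fold (adjusted p = 4.0e-05), 1.25-fold (adjusted p = 7.2e-04) and 1.32-fold (adjusted p = 8.4e-04). Of 50 mitosis genes 6 were higher and 8 lower (12% and 16%, beside 17.2% and 18.6% of all genes). UBE2C and NDC80 rose 1.18-fold (adjusted p = 9.3e-04) and 1.20-fold (adjusted p = 0.002), and the cyclin CCNB2 and the kinesin KIF20A fell 1.22-fold (adjusted p = 0.0025) and 1.23-fold (adjusted p = 0.0048). The mitosis genes lower numbered 3 without AZA replicate 1 or DMSO replicate 1, 4 without DMSO replicate 2 and 5 without AZA replicate 3, and 3 with upper quartile scaling, and the replication genes lower 0 without AZA replicate 1 and 1 without AZA replicate 2, AZA replicate 3 or DMSO replicate 2.

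The list of p53 and DNA damage targets had 5 higher and 6 lower of 31 (16.1% and 19.4%, beside 17.2% and 18.6% of all genes). The higher genes numbered 1 without AZA replicate 1, 2 without AZA replicate 3, DMSO replicate 1 or DMSO replicate 2 and 3 without AZA replicate 2 or DMSO replicate 3. CCNG1, a cyclin induced by p53, had 111, 99.9 and 100.1 CPM with DMSO and 60.7, 61.1 and 58.5 CPM with AZA and fell 1.73-fold (adjusted p = 6.7e-09), and BTG2, an antiproliferative target, fell 1.57-fold (adjusted p = 8.0e-04). RB1, the retinoblastoma gene, fell 1.31-fold (adjusted p = 1.8e-05). In the BCL2 family MCL1, which blocks apoptosis, rose 1.42-fold (adjusted p = 7.4e-04), from 403 ± 19.9 to 573 ± 66.7 CPM, BMF, a BH3-only inducer of death, rose 1.71-fold (adjusted p = 1.5e-04), and BIK and BCL2L15 fell 1.74-fold (adjusted p = 3.0e-04) and 3.13-fold (adjusted p = 2.9e-08), so 5 were higher and 3 lower of 17.

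Of the kinases and cyclins of transcription 3 of 21 were higher and 6 lower, the latter 3 without AZA replicate 3 or DMSO replicate 1. These shares of 14.3% and 28.6% stood beside 17.2% and 18.6% of all genes. CDK8 and CDK19, the Mediator kinases, and their cyclin CCNC fell 1.19-fold (adjusted p = 0.0014), 1.23-fold (adjusted p = 3.0e-04) and 1.17-fold (adjusted p = 0.002). NRF2 targets split, 12 higher and 10 lower of 31. The ferritin heavy chain FTH1, which stores iron, rose 1.74-fold (adjusted p = 8.0e-07), TXNRD1, a thioredoxin reductase, 1.32-fold (adjusted p = 5.7e-06), and the aldo-keto reductases AKR1C1 and AKR1C2, which share much sequence, 1.80-fold (adjusted p = 9.5e-08) and 1.77-fold (adjusted p = 3.4e-06). GPX2, the glutathione peroxidase of gut epithelium, fell 3.25-fold (adjusted p = 8.1e-07). Of the drug efflux pumps ABCC2 rose 1.28-fold (adjusted p = 2.3e-04) and ABCC6 fell 1.34-fold (adjusted p = 6.6e-04).

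CFPAC1 received the same dose of AZA, and the difference between the responses of the lines was tested in 1 fit over 24 libraries, AZA and DMSO against each other in each line. Of 19094 genes tested, 1652 responded more positively in ASPC1 (8.65%) and 1654 more negatively (8.66%). Intestinal genes were 5 higher and 31 lower of 45 tested in ASPC1, and 16 and 1 of only 32 tested in CFPAC1. By the test of the difference 26 had a more negative response in ASPC1. Mesenchymal genes were 15 higher and 4 lower in ASPC1, and 5 and 18 in CFPAC1, with 18 more positive in ASPC1. Junction genes were 0 higher and 29 lower in ASPC1, and 2 and 12 in CFPAC1, and 20 differed to the negative side. Most sterol genes were lower in both, 24 of 27 in ASPC1 and 21 in CFPAC1, where the median log2 fold change was -0.53, and 18 had a more negative response in ASPC1. Interferon genes were 6 higher and 17 lower in ASPC1, and 8 and 2 in CFPAC1, with 14 more negative in ASPC1. Replication genes were 18 higher and 2 lower in ASPC1, and 15 and 1 in CFPAC1. The share of all genes called for AZA against DMSO in CFPAC1 is not given here. List counts in CFPAC1 therefore stand without a background.

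Several of the genes with at most 1 count over the ASPC1 DMSO libraries had RNA in CFPAC1 with DMSO. CFPAC1 in DMSO had 46.0 ± 2.05 CPM of PHGDH, 26.1 ± 0.739 of SALL1 and 329 ± 9.81 of TFPI2 (mean ± SD, n = 3), above the levels of ASPC1 with AZA. MEG3 and TSPAN18 were at 2.11 and 2.54 CPM there.

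AZA and ZNF274 siRNA were applied to ASPC1 in separate libraries, and their effects, each against its own control, were compared in the fit of 12 libraries. The libraries labelled siZNF274 had 19.4 ± 2.93 CPM of ZNF274 and the siCTRL libraries 17.6 ± 2.61 (mean ± SD, n = 3), so the mean of the targeted mRNA was not lower (adjusted p = 0.31) and the label is not borne out at the level of RNA. Of 16186 genes, 2703 had a more positive effect with AZA (16.7%) and 2559 a more negative one (15.8%). The counts of sterol genes were opposite: 24 fell with AZA, whereas they counted 22 higher and 1 lower in the libraries labelled siZNF274. HMGCS1, INSIG1 and MSMO1 had log2 fold changes of 0.95, 0.90 and 0.91 there and of -1.18, -1.28 and -1.35 with AZA, and each difference passed (largest adjusted p = 4.7e-08).

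The counts of other lists are given side by side. Intestinal genes counted 31 lower with AZA and 6 higher and 26 lower in the libraries labelled siZNF274, junction genes 29 lower and 5 higher and 28 lower in the libraries labelled siZNF274, and mesenchymal genes 15 higher and 17 higher and 3 lower in the libraries labelled siZNF274. Mitosis genes were 2 higher and 41 lower in the libraries labelled siZNF274 and replication genes 2 and 30, beside 8 and 2 lower with AZA. The share of all genes called for siZNF274 against siCTRL is not given here. List counts in those libraries therefore stand without a background. Of genes with the most unlike effects, AQP3, a channel for water and glycerol, and STRA6, a retinol receptor, rose 3.44-fold (adjusted p = 7.2e-12) and 3.26-fold (adjusted p = 4.4e-08) with AZA and had log2 fold changes of -1.07 and -1.08 in the libraries labelled siZNF274.

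**Figure D4:**
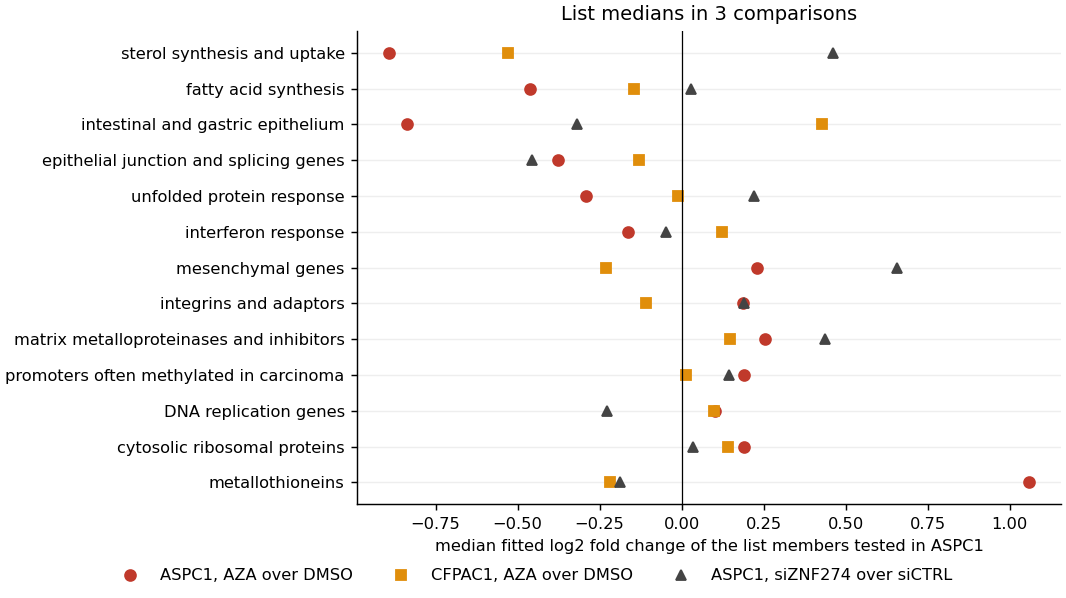
Median fitted log2 fold change of the listed gene lists (x axis) in 3 comparisons, AZA against DMSO in ASPC1, AZA against DMSO in CFPAC1 and siZNF274 against siCTRL in ASPC1, with 1 marker per comparison. For intestinal genes the markers lie at -0.84 in ASPC1 (45 genes tested) and 0.43 in CFPAC1 (32 of them tested there). For sterol genes the ASPC1 markers lie at -0.89 with AZA and 0.46 in the libraries labelled siZNF274.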

How the data were processed

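RNA-seq measured total RNA of ASPC1 cells with AZA or DMSO, 3 libraries each, from 500 ng of RNA with a stranded ribosomal-depletion kit, per the labels' protocols. The deposited values are whole-number counts per gene on build hg38. STAR 2.7.10b and FastQC are named in the submitters' processing notes; the program that counted reads, how it used strand and its annotation were not given in the sources used here. The deposited H3K9me3 peak list carries a constant score, and only its 49890 intervals were used. How replicates entered that list was not given in the sources used here.

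From the counts, edgeR 4.0.16 (limma 3.58.1, R 4.3.3) was run with filterByExpr, TMM scaling and the quasi-likelihood test on 12 ASPC1 libraries of 4 groups, which share 1 estimate of spread, with Benjamini-Hochberg adjustment at 0.05. The difference from CFPAC1 was fitted on 24 libraries. CPM are counts per 1000000 of the TMM-scaled library, without correction for gene length, so levels of different genes are not compared. Of the 36843 genes 11353 had no count in the 6 libraries and 9304 had too few. The fit was checked on simulated counts. Libraries held 34359038 to 38881933 counts, and intervals (95%) cover counting error only. DESeq2 1.42.0, upper quartile scaling, no filter, 6 libraries alone, a replicate block and leaving out each library were the alternatives.

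The comparison and the 53 gene lists were chosen with earlier results of these data known. Named genes are, by rule, 15 with the largest rise and 15 with the largest fall at 5 CPM or more, 8 by absolute change, lncRNA at 2 CPM or more, up to 4 per list and direction, the genes silent in DMSO, 8 per direction of each difference, and the targeted genes. RefSeq promoters were matched by symbol. Motifs were not searched, and the chromosome Y genes and some genes that the rule names are not reported here.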

Additional observations from a re-analysis of the deposited data

Results flagged for a closer look

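The AZA effect differed between ASPC1 and CFPAC1 for 1652 genes that were more positive and 1654 more negative in ASPC1, by the test of the difference in the 24-library fit. The named genes are those with the largest differences among genes past the threshold. Differences here are ASPC1 minus CFPAC1 on the log2 scale, and those of genes at or near 0 in a group depend on the prior count and are no bound.

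On the positive side were PHGDH (8.03), SALL1 (7.6), TFPI2 (7.24), BTBD6 (6.62), STC2 (6.31), TFAP2C (6.26), PKIA (5.92) and NETO2 (5.62). All 8 had at most 3 counts over the ASPC1 DMSO libraries, more with AZA, and a mean of at least 7.39 CPM in CFPAC1 with DMSO. A gene under 5 CPM in ASPC1 could meet the 5 CPM rule only through CFPAC1, so its CFPAC1 level was partly fixed in advance. STC2, a secreted glycoprotein, was at 0, 0 and 0 CPM in ASPC1 with DMSO and 0.286, 0.130 and 0.258 CPM with AZA, and went from 274 ± 17.4 to 247 ± 1.27 CPM in CFPAC1. NETO2, an accessory subunit of glutamate receptors, was at 0, 0 and 0.0799 and 1.40, 1.69 and 1.45 CPM in ASPC1, a ratio of 56.7 with an exact 95% counting interval of 19.1 to 278, and its log2 fold change there became 8.77 without DMSO replicate 3.

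On the negative side were LINC02864 (-6.70), NR0B2 (-4.37), RARRES1 (-3.19), ANXA13 (-3.18), CKMT1B (-3.16), INPP5D (-3.11), PRR15L (-3.09) and MUC5B (-3.05). INPP5D, a phosphatase of phosphoinositides best known in blood cells, had 184, 189 and 195 CPM with DMSO and 338, 365 and 343 CPM with AZA in ASPC1, a rise of 1.84-fold (adjusted p = 2.0e-09), and in CFPAC1 it went from 0.438 ± 0.0572 to 6.96 ± 0.427 CPM. ANXA13 fell 4.07-fold (adjusted p = 7.2e-12) in ASPC1 and went from 1.19 ± 0.105 to 2.64 ± 0.164 CPM in CFPAC1. RARRES1 went from 0.989 ± 0.0396 to 4.12 ± 0.637 CPM in CFPAC1 and fell 2.18-fold (adjusted p = 2.0e-06) in ASPC1. MUC5B, a secreted mucin, went from 2.48 to 10.5 CPM in CFPAC1 and fell 1.96-fold (adjusted p = 1.1e-05) in ASPC1. LINC02864 was not called in ASPC1 (adjusted p = 0.098). NR0B2 and CKMT1B lost the call without CFPAC1 AZA replicate 1, DMSO replicate 2 or DMSO replicate 3 (adjusted p = 0.0507 to 0.0941).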

How the results depend on the processing

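The counts of genes higher and lower (2792 and 3004) stayed within 1.5 times under the alternatives run. They were 2731 and 2927 with DESeq2, 2970 and 3144 without the low-count filter, 3160 and 3048 with the 6 AZA and DMSO libraries alone, and 3348 and 2544 with upper quartile scaling, which put more genes on the higher side. Leaving out 1 library gave 2178 to 2883 higher and 2436 to 2862 lower, and 512 to 570 and 269 to 309 at 2-fold. The difference from CFPAC1 gave 1388 to 1708 and 1297 to 1496, and that from siZNF274 2271 to 3082 and 2191 to 2727. Genes silent in DMSO and expressed with AZA numbered 10, and 24 at 5 counts, 29 with up to 3 counts over the DMSO libraries, and 11 to 16 without 1 library, most without DMSO replicate 3. The reverse set of 0 became 1, 3 and 0 to 1, the 1 without AZA replicate 1. Of 363 named genes 318 kept their call throughout. TP53INP1, not called at a log2 fold change of -0.09, ranged from -0.34 to 0.0900 without 1 library and was above 0 without AZA replicate 2 (0.0665) or DMSO replicate 1 (0.0900).

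Whether replicate numbers pair the libraries was not tested. Deviations of same-numbered AZA and DMSO libraries correlated at 0.149, 0.0179 and 0.207, and those of other pairs at -0.244 to 0.122. Each AZA library correlated best with the DMSO library of its number, though AZA replicate 2 hardly so (0.0170 with DMSO replicate 3). DMSO replicate 2 correlated best with AZA replicate 1. With the replicate block 3171 genes were higher and 3271 lower, 568 and 305 at 2-fold, and 1 named gene lost its call. The block gave 1777 and 1776 genes for CFPAC1 and 3000 and 2809 for siZNF274. H3K9me3 over the gene start, the setting chosen first and void for its coverage of genes, gave 19.8% of 106 genes higher, and over at least 50% of the body 8.56% of 327. The alternative CpG class was not run as a comparison because the check was void. Depth limits the calls in low genes.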

Other observations

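Clustered gene families and lncRNA showed no common direction. Of 28 HOX genes 8 were higher and 3 lower, and the genes that rose included HOXA3, at 1.51-fold (adjusted p = 6.4e-05), while HOXA13, at the 5′ end of the HOXA cluster, fell 1.88-fold (adjusted p = 1.1e-07) together with the lncRNA HOTTIP beside it, which fell 1.99-fold (adjusted p = 2.6e-06). The HOX shares were 28.6% higher and 10.7% lower, and the HOX genes higher numbered 5 without DMSO replicate 1 or DMSO replicate 2. Of 389 zinc finger genes 34 were higher (8.74%) and 60 lower (15.4%). The higher ones numbered 17 without AZA replicate 3, 19 without DMSO replicate 1 and 22 without DMSO replicate 2. Of 31 clustered protocadherins 2 were higher (6.45%) and 5 lower (16.1%). Replication-dependent histones, close copies whose reads can be split, counted 5 and 10 of 58 (8.62% and 17.2%). The shares of zinc finger, protocadherin and histone genes lay below the 17.2% higher and 18.6% lower of all genes. Among lncRNA at 2 CPM or more MIR100HG, MANCR and LUCAT1 rose 2.99-fold (adjusted p = 8.0e-07), 2.89-fold (adjusted p = 6.4e-08) and 2.34-fold (adjusted p = 5.5e-06), and MIOS-DT and BCAR3-AS1 fell 3.19-fold (adjusted p = 1.7e-05) and 2.85-fold (adjusted p = 3.5e-07). Where a lncRNA lies antisense to a gene, the counting's use of strand was not given in the sources used here, and their reads may not be separate.

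The shares of genes called differed among chromosomes. On chromosome 19 26.3% of 1110 tested genes were higher and 10.9% lower, and on chromosome 20 24.8% and 13.4% of 456. Chromosomes 4 and 13 had the reverse, 10.3% higher and 26.6% lower, and 10.0% and 23.8%. The H3K9me3 peaks of ASPC1 with the control shRNA covered at least 50% of the body of 327 tested genes. Of these 8.56% were higher and 14.1% lower, beside 17.4% and 18.7% of the other genes. At 2-fold the higher shares were 5.20% and 3.42%. The median level in DMSO was 3.10 CPM against 17.7 CPM, and the part of that difference in level was not tested. A peak over the start could be read only for the 70.0% of tested genes with a start in the table, so that comparison was void.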
